A study of Mus musculus with 12 samples.

Results

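Cirbp, Rbm3 and Tra2a, 3 genes of RNA-binding proteins linked to body temperature, were followed in mouse kidney by day and by night, with and without the clock protein BMAL1 in the renal tubule. They were taken by symbol from the 38924 gene IDs of the count files. They had been picked for their day-night differences in both genotypes, so those differences are described here without a test, and only the comparison of genotypes is tested. All 3 passed the filter on low counts, as did 16150 genes in all. The grouping expected of them, Cirbp and Rbm3 on one side and Tra2a on the other, was not what the counts showed: Rbm3 was higher at night, together with Tra2a, and only Cirbp was higher by day.

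Whole kidneys were profiled by poly(A) RNA sequencing in 12 libraries, 3 for each of 4 groups. The knockout (KO) mice carried loxP-flanked Arntl, the gene of BMAL1 (Bmal1lox/lox), with Pax8-rtTA and LC-1 Cre, so that doxycycline switches on Cre recombinase in tubule cells that express the Pax8 promoter, while other kidney cells keep the gene. They received doxycycline at 2 mg/ml in the drinking water for 2 weeks from 8 weeks of age, and were compared with wild-type (WT) littermates, whose transgenes and doxycycline treatment the labels do not spell out. All were on a C57BL/6J background on standard chow in 12 h light and 12 h dark. WT and KO mice were killed at ZT4 (zeitgeber time, in hours from lights on), in the rest phase of these nocturnal animals, and at ZT16, 4 h after lights off. Whether each library is a different animal is not stated, so errors and p-values describe variation among libraries, part of which may be technical.

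Body temperature of a mouse swings daily, lower in the resting light phase and higher in the active dark phase, and this swing is itself a time cue for peripheral tissues. CIRBP, the cold-inducible RNA-binding protein, and RBM3 are small glycine-rich proteins with a single RNA recognition motif whose levels rise on mild cooling of cells. They bind messenger RNA, affect translation and the choice of polyadenylation site, and CIRBP is known to bind Clock mRNA and to be needed for full rhythm amplitude in cultured cells. TRA2A, with its paralog TRA2B, is an SR-like splicing activator with arginine-serine-rich ends that binds GAA-rich exonic enhancers, and SR proteins are a known part of temperature-dependent alternative splicing.

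The sequences before the start sites of the 2 genes with the larger differences, in opposite directions, are shown from the RefSeq promoter table (GRCm38.p6), which had 2 windows for Cirbp, 1 for Tra2a and none for Rbm3. Each run is the 250 bases before the annotated start, 5′ to 3′ on the gene's strand, and capitals mark TCCCCGCC, an octamer described as a mild-cold response element of Cirbp.
Cirbp, chr10:80167589-80167838 (plus strand): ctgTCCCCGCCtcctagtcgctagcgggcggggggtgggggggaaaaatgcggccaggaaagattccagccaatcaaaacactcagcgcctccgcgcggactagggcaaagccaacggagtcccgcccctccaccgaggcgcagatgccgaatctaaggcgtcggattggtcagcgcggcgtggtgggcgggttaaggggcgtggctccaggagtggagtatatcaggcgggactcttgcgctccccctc
Tra2a, chr6:49264053-49264302 (minus strand): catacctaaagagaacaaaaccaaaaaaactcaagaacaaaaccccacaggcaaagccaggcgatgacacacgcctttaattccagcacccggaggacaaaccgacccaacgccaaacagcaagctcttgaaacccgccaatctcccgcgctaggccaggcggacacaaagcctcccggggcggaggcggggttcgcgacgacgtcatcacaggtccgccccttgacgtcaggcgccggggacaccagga
The octamer stood once in the Cirbp window, 247 bases before the start, and not in the Tra2a window or in the other Cirbp window, at chr10:80167921-80168170. On either strand it was found in 1524 of 32817 promoter windows of this length (4.64%). The E-box CACGTG (6.02% of windows), the heat shock element cores GAANNTTC (6.69%) and TTCNNGAA (7.16%), the D-box TTATGTAA (0.817%) and AGGTCA, the core of ROR and REV-ERB elements (14.0%), were in none of the 3 windows. None of these motifs contains another. A match is a string of letters and not a shown site of binding, and a missing match speaks only for these 250 bases.

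Facts that touch all values were these. Libraries held between 25628887 and 38043491 gene counts, and the 3 genes had 402 to 2474 counts each in a library. Arntl itself lay at 13.8 to 20.01 CPM (counts relative to the scaled library size) in WT ZT4, 14.4 to 16.2 in KO ZT4, 8.63 to 11.03 in WT ZT16 and 12.3 to 15.0 in KO ZT16, with log2 fold changes of -0.08 ± 0.14 (SE, adjusted p = 0.777) and 0.43 ± 0.15 (adjusted p = 0.151) at ZT4 and ZT16. Whole-gene counts over all cells of the kidney do not check the labels. In KO ZT16 replicate 2 mitochondrially encoded genes took 22.3% of counts against 14.0% and 14.1% in the other two, and it stood apart from them on the first principal component (43.0 against -9.74 and -11.8), so results are also given without it. Xist was at 0 to 0.192 CPM and Ddx3y, on the Y chromosome, at 70.5 to 135 CPM in the 12 libraries, the pattern of male tissue throughout, given here because Rbm3 is X-linked. The kidney was recognisable by its markers, with the proximal tubule list at 7275 to 9881 CPM in sum, while those of skeletal muscle and adrenal cortex stayed under 1 CPM, with Myh4 and Cyp11b1 at 0.

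Cirbp (ENSMUSG00000045193, chromosome 10, 80165985 to 80172786, plus strand, GRCm38) was the gene of the 3 that was lower at night. In wild type it had 26.8, 32.1 and 38.5 CPM in ZT4 replicates 1, 3 and 5, and 14.9, 20.01 and 13.9 CPM in ZT16 replicates 1, 3 and 5. Every night library lay under every day library, and the means were 32.5 ± 5.84 (SD, n = 3) and 16.3 ± 3.26 CPM. In the knockout it had 41.4, 44.6 and 40.3 CPM in ZT4 replicates 2, 4 and 6, and 18.5, 16.9 and 21.9 CPM in ZT16 replicates 2, 4 and 6. The groups did not overlap here either, at 42.1 ± 2.21 and 19.1 ± 2.56 CPM. The fitted log2 difference of ZT16 from ZT4 was -0.99 ± 0.16 (SE) in wild type, a 1.99-fold lower level, and -1.14 ± 0.16 in the knockout, 2.21-fold lower. Among the 16150 tested genes these were the 229th and 105th lowest values. Without KO ZT16 replicate 2 the knockout value of Cirbp was -1.13. In order, the levels ran KO ZT4, WT ZT4, KO ZT16, WT ZT16, and of these neighbours only the 2 night groups overlapped.

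Rbm3 (ENSMUSG00000031167, chromosome X, 8138975 to 8145880, minus strand), the close relative of Cirbp, went the other way. In wild type it had 20.1, 19.4 and 19.6 CPM in ZT4 replicates 1, 3 and 5, and 28.5, 26.1 and 28.4 CPM in ZT16 replicates 1, 3 and 5. The libraries of a group were tight, at 19.7 ± 0.380 and 27.7 ± 1.31 CPM (SD, n = 3), and did not overlap. In the knockout it had 20.3, 17.9 and 17.6 CPM in ZT4 replicates 2, 4 and 6, and 32.0, 27.8 and 20.9 CPM in ZT16 replicates 2, 4 and 6. Night was again above day without overlap, but KO ZT16 replicate 6 stood only just above the day libraries, and the night spread of ± 5.62 around 26.9 CPM was the widest of the gene. The fitted log2 difference was 0.49 ± 0.13 in wild type (1.40-fold higher) and 0.53 ± 0.13 in the knockout (1.45-fold higher). These were the 1294th and 1538th highest of 16150. Without KO ZT16 replicate 2 the knockout value was 0.39 ± 0.11. The levels ran WT ZT16, KO ZT16, WT ZT4, KO ZT4, with overlap within each time and none between the times.

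Part of the transcript sequence of Rbm3 is not unique to it. Of the distinct 50-base words in its GENCODE M21 transcripts, 9.71% also occur in transcripts of other genes, 13.3% for its protein-coding transcripts, with the processed pseudogene Rbm3-ps sharing most (315 words). For Cirbp and Tra2a the share was 0%. This covers annotated transcripts only, and reads that align to several places are set apart in the deposited counts. Rbm3 also shares 94 exonic bases (2.00% of its exonic length) with its antisense gene Rbm3os. All 3 genes are annotated with retained-intron transcripts and transcripts subject to nonsense-mediated decay, and a count per gene adds them to the coding ones, so the values do not say which form differed between day and night. Their part in the direction of Rbm3 was not tested.

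Tra2a (ENSMUSG00000029817, chromosome 6, 49243924 to 49264033, minus strand), the splicing activator, had about the same size of difference as Cirbp with the opposite sign. In wild type it had 35.2, 37.6 and 33.7 CPM in ZT4 replicates 1, 3 and 5, and 65.2, 69.3 and 79.4 CPM in ZT16 replicates 1, 3 and 5. Every night library was far above the day libraries, with means of 35.5 ± 2.00 and 71.3 ± 7.31 CPM (SD, n = 3). In the knockout it had 33.9, 28.2 and 33.6 CPM in ZT4 replicates 2, 4 and 6, and 65.1, 59.7 and 52.7 CPM in ZT16 replicates 2, 4 and 6. The groups stayed apart, at 31.9 ± 3.23 and 59.2 ± 6.25 CPM. The fitted log2 difference was 1.01 ± 0.11 in wild type (2.01-fold higher) and 0.89 ± 0.11 in the knockout (1.86-fold higher), the 181st and 304th highest of 16150. Without KO ZT16 replicate 2 the knockout value of Tra2a was 0.81. The order was WT ZT16, KO ZT16, WT ZT4, KO ZT4, where the day groups overlapped and the night groups were separated by less than their spread.

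**Figure D1:**
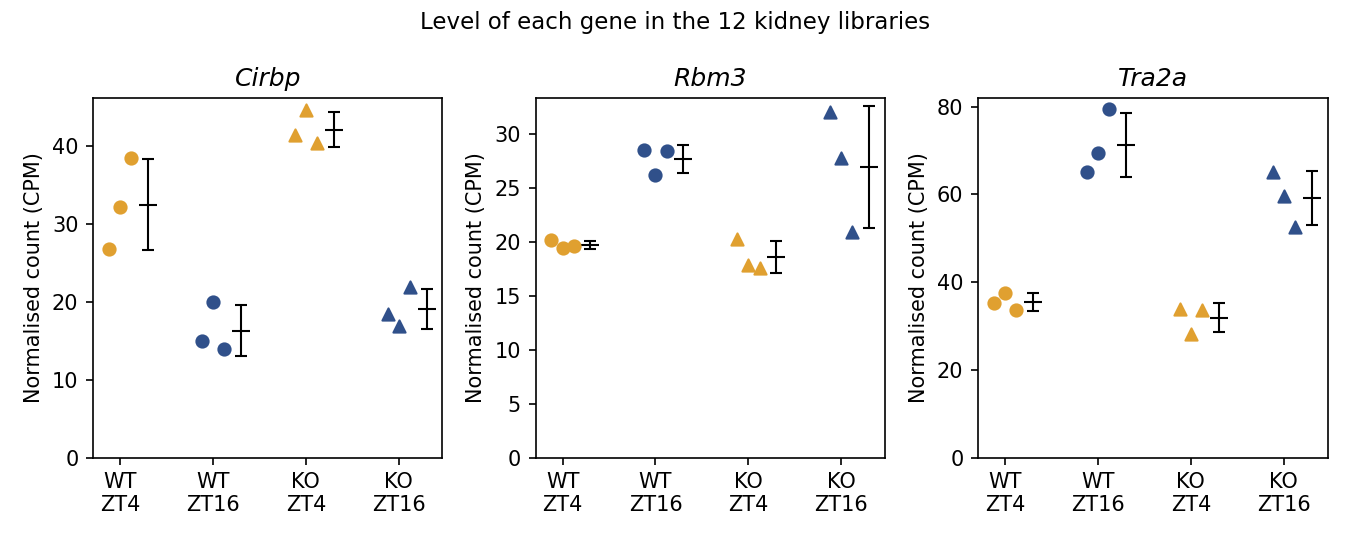
Normalised counts (CPM, linear axis from 0) of Cirbp, Rbm3 and Tra2a in each of the 12 libraries, with ZT4 in orange, ZT16 in blue, wild type as circles and knockout as triangles, and the mean ± SD of 3 libraries beside them. Cirbp lies at 32.5 and 16.3 CPM in the wild-type day and night groups while Rbm3 goes from 19.7 to 27.7 and Tra2a from 35.5 to 71.3.

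Separation of day and night libraries was common among genes. Library values did not overlap for 42.6% of all tested genes in wild type (21.3% higher and 21.3% lower at night) and 43.3% in the knockout (21.1% higher and 22.2% lower), and all 3 genes were among them in both. The test itself called 6.50% and 10.5% of all genes. The members were picked on these contrasts, so nothing is read from that.

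A comparison that needs no scaling between libraries is the ratio of 2 genes within a library, here as log2 of counts per exonic base. Cirbp over Tra2a was 1.27 ± 0.302 (SD, n = 3) in WT ZT4 and -0.73 ± 0.359 in WT ZT16, and 1.82 ± 0.224 in KO ZT4 and -0.22 ± 0.320 in KO ZT16. By day Cirbp thus exceeded Tra2a per base in all 6 libraries, and by night it was under Tra2a in 5 of 6, KO ZT16 replicate 6 at 0.15 being the exception. Cirbp over Rbm3, the 2 cold-inducible genes, went from 1.56 ± 0.280 to 0.07 ± 0.345 in wild type and from 2.03 ± 0.146 to 0.37 ± 0.477 in the knockout. Rbm3 over Tra2a moved least, from -0.28 ± 0.0951 to -0.80 ± 0.150 in wild type and from -0.21 ± 0.144 to -0.59 ± 0.161 in the knockout.

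**Figure D2:**
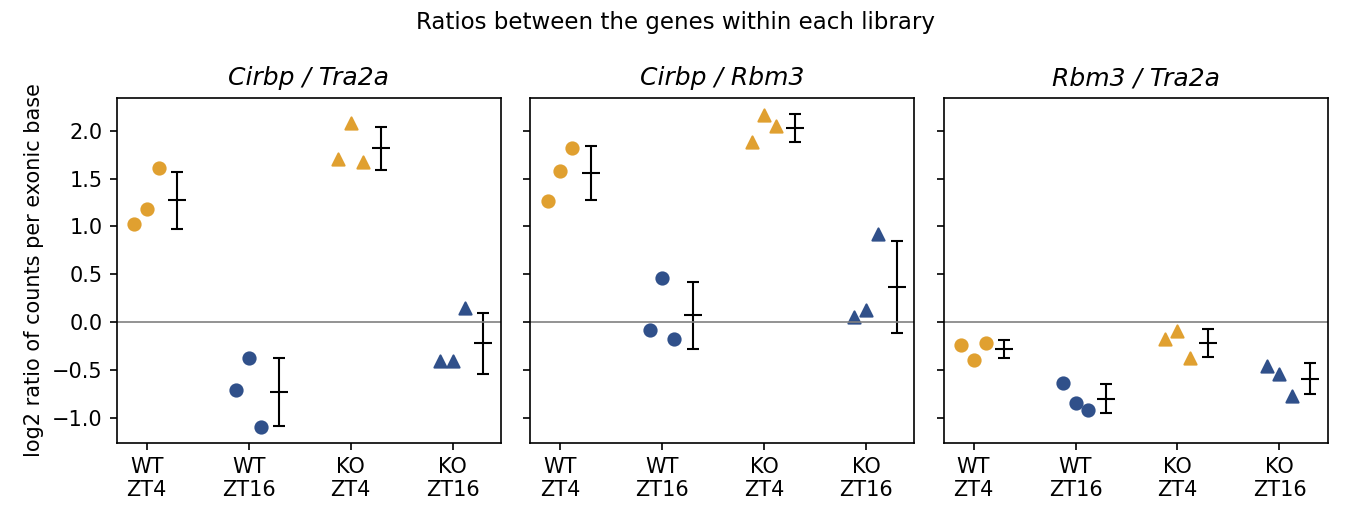
Log2 ratio of counts per exonic base between pairs of the 3 genes within each library, with group mean ± SD (n = 3), colours and symbols as for the levels. The ratios of Cirbp to Tra2a and to Rbm3 drop from day to night in both genotypes. Rbm3 to Tra2a drops too, by less, and lies between -0.92 and -0.09 in all libraries.

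Per kilobase of exon (RPKM, over all annotated exons), Cirbp led by day with 12.5 ± 2.24 in WT ZT4 against 5.11 ± 0.287 for Tra2a and 4.196 ± 0.0810 for Rbm3. By night Tra2a led with 10.3 ± 1.05 in WT ZT16, and Cirbp (6.26 ± 1.25) and Rbm3 (5.89 ± 0.279) did not differ beyond their spread. The order was the same in the knockout, with 16.2, 4.59 and 3.95 RPKM by day and 7.32, 8.52 and 5.73 by night for Cirbp, Tra2a and Rbm3. Taking instead the longest protein-coding transcript (1321 bases for Cirbp, 1799 for Tra2a and 2792 for Rbm3), the WT levels by day were 24.6, 19.7 and 7.06 RPKM and by night 12.3, 39.6 and 9.91, in the same order.

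Several library-wide measures moved with the time of day and stand beside these differences. Mitochondrially encoded genes took 16.3% to 18.0% of counts in WT ZT4 and 18.7% to 22.4% in WT ZT16, 12.6% to 12.8% in KO ZT4 and 14.0% to 22.3% in KO ZT16. Reads aligned to more than 1 place, which are not counted and bear on Rbm3 with its shared sequence, made up 34.1% to 36.5% in WT ZT4 and 38.8% to 41.8% in WT ZT16, and 30.8% to 31.3% in KO ZT4 and 33.3% to 43.0% in KO ZT16. Over the 12 libraries the log2 levels of Cirbp, Rbm3 and Tra2a had Pearson correlations of -0.847, 0.847 and 0.86 with the first principal component, as a description, since the libraries share groups and scaling. Loadings of genes on the first principal component had a Spearman correlation of -0.333 with GC content and -0.367 with exonic length across 15997 genes, which are not independent replicates, and the transcripts of Cirbp are richer in GC (57.4%) than those of Rbm3 (45.1%) and Tra2a (43.9%). Offsets for GC content and length in each library were added after seeing the data. With them the day-night values in wild type and knockout were -0.97 and -1.10 for Cirbp, 0.47 and 0.51 for Rbm3 and 1.02 and 0.91 for Tra2a. Without them they were -0.99 and -1.14, 0.49 and 0.53, and 1.01 and 0.89. Of 14 lists of cell type markers, podocyte markers summed to 188 to 226 CPM in WT ZT4 and 146 to 179 in WT ZT16 (229 to 243 and 144 to 197 in the knockout). Thick ascending limb markers summed to 5273 to 5860 and 6178 to 7549 CPM (4341 to 4481 and 5308 to 6814 in the knockout), a sum made mostly of Umod (0.41 and 0.58 at night), while Slc12a1 was at 0.06 and -0.03. Cldn16 of the same list, at a mean of 12.9 CPM, was at 0.58 (adjusted p = 0.058) and 0.64 (adjusted p = 0.0359). Principal cell markers were separate in wild type only (195 to 235 and 282 to 283 CPM), and proximal tubule markers (9512 to 9729 and 7275 to 9482 CPM) and those of T and B cells (1.16 to 1.67 and 0.741 to 1.09 CPM) in the knockout only. The proximal tubule sum is led by Slc34a1 (-0.30 in wild type and -0.34 in the knockout, not called), whereas Aqp1 of the same list rose at night (0.29, adjusted p = 0.0478, and 0.31, adjusted p = 0.0328) and Lrp2 was at 0.01 in both. Their part in the differences was not tested, and in whole kidney fewer cells of a type and less RNA per cell cannot be told apart.

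Loss of tubular BMAL1 was compared with wild type to ask whether the levels of the 3 genes depend on it, and this contrast did not choose them. Averaged over both times, which uses no day-night term, Cirbp was at 0.30 ± 0.11 (95% interval 0.06 to 0.54, adjusted p = 0.104), Tra2a at -0.21 ± 0.08 (-0.38 to -0.04, adjusted p = 0.0977) and Rbm3 at -0.06 ± 0.09 (-0.26 to 0.14, adjusted p = 0.686) on the log2 scale. None of the 3 was called at an adjusted p of 0.05 by edgeR's quasi-likelihood test with 6 libraries against 6, where 11.4% of all tested genes were. Unadjusted p was 0.0193, 0.0174 and 0.510. The side of the threshold depended on single libraries. Cirbp passed without WT ZT16 replicate 3 (0.38, adjusted p = 0.0394) and without KO ZT16 replicate 2 (0.30, adjusted p = 0.0364), and Tra2a without KO ZT16 replicate 2 (-0.25, adjusted p = 0.00989) and with the GC and length offsets (-0.23, adjusted p = 0.0374). Against 1834 genes called in all, 1566 were called without WT ZT16 replicate 3, 6935 without KO ZT16 replicate 2 and 2484 with the offsets.

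At each time the picture was the same in sign. At ZT4 Cirbp was 1.30-fold higher in the knockout (log2 0.37 ± 0.15, adjusted p = 0.230) and the libraries did not overlap, as for 37.7% of all genes (19.3% higher and 18.4% lower). Tra2a was at -0.15 ± 0.11 (adjusted p = 0.455) and Rbm3 at -0.09 ± 0.13 (adjusted p = 0.734), both with overlap. In a fit of only the 6 ZT4 libraries Cirbp passed (0.38, adjusted p = 0.0356), as did 2877 genes in all, against 531 in the fit of 12 libraries. At ZT16 Cirbp was at 0.22 ± 0.16 (adjusted p = 0.537) and Rbm3 at -0.04 ± 0.13 (adjusted p = 0.920), with overlap. Tra2a was at -0.27 ± 0.11 (adjusted p = 0.237), the groups being separated by 65.1 and 65.2 CPM in the nearest libraries, where 15.9% of all genes did not overlap (7.92% higher and 7.95% lower), and it passed without KO ZT16 replicate 2 (-0.35, adjusted p = 0.0194), where 5099 genes were called in place of 651. The test called 3.29% of genes at ZT4 and 4.03% at ZT16, and DESeq2 called none of the 3 at either time or over both. These contrasts share libraries with the day-night differences.

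Cell markers and library measures also differed between the genotypes. Summed macrophage markers did not overlap at either time, at 92.3 to 112 CPM in WT ZT4 and 77.2 to 85.1 in KO ZT4, and 87.5 to 95.9 in WT ZT16 and 69.9 to 80.4 in KO ZT16. At ZT4 the lower sums in the knockout were those of thick ascending limb (5273 to 5860 and 4341 to 4481 CPM) and endothelium (290 to 316 and 257 to 271), and the higher ones those of podocytes (188 to 226 and 229 to 243) and distal convoluted tubule (483 to 645.9 and 646.3 to 696). At ZT16 the sum of principal cell markers was lower (282 to 283 and 227 to 281 CPM). Of that list Aqp2 was at -0.27 and Aqp3 at -0.14 there but Scnn1g at 0.19, none called. Averaged over the times Csf1r of the macrophage list (-0.33, adjusted p = 0.00247), Umod of the thick ascending limb (-0.46, adjusted p = 0.00861) and Aqp1 of the proximal tubule (-0.31, adjusted p = 0.00334) fell in the knockout. Trpm6 of the distal convoluted tubule rose (0.46, adjusted p = 0.0197). In the lists of Umod and Aqp1, Slc12a1 (0.17), Slc34a1 (0.16) and Slc5a2 (0.17) lay on the positive side. Cldn16 (-0.03), Cubn (-0.16) and Lrp2 (-0.09) lay on the negative side, none of them called. The mitochondrial and multiply aligned shares given above were lower in every KO ZT4 library than in WT ZT4. The part of these in the genotype values of the 3 genes and of the lists that follow was not tested.

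The day-night difference itself was of like size in the genotypes. The knockout minus wild-type value of that difference was -0.15 ± 0.22 for Cirbp (95% interval -0.63 to 0.33), 0.05 ± 0.18 for Rbm3 (-0.35 to 0.44) and -0.11 ± 0.15 for Tra2a (-0.45 to 0.22). The test called 0.0186% of all genes here (0.00619% higher and 0.0124% lower). These intervals do not show that the genotypes are alike.

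**Figure D3:**
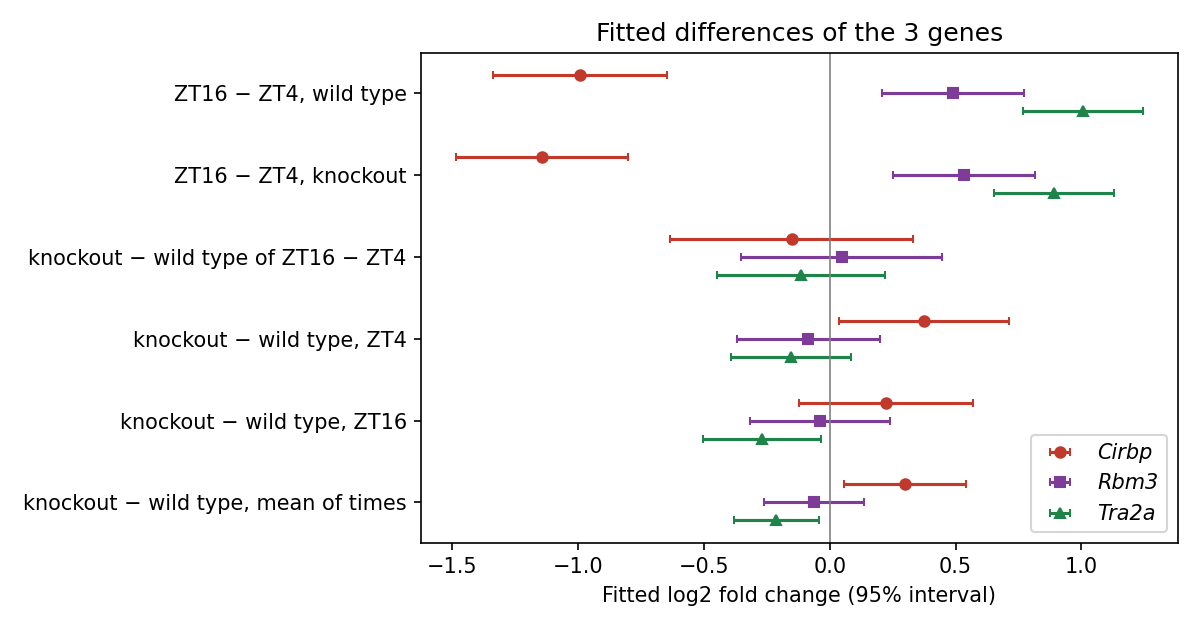
Fitted log2 fold changes of Cirbp (circles), Rbm3 (squares) and Tra2a (triangles) with 95% intervals from the fit of all 12 libraries, for the day-night differences, their difference between genotypes, and the genotype comparisons. The day-night values lie on the negative side for Cirbp and the positive side for Rbm3 and Tra2a in both genotypes, and every interval of the difference between genotypes spans 0.

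Among other genes of temperature response, heat shock genes, the chaperones and co-chaperones that heat induces through HSF1, moved at night with Rbm3 and Tra2a. This list and those that follow were chosen with earlier results of these data known, so their calls and adjusted p-values are descriptions. In wild type 14 of 21 tested rose at ZT16 and none fell (median log2 0.68 against -0.01 over all tested genes, of which 2.87% were called higher). The inducible chaperone gene Hspa1b rose from 12.6 ± 2.07 to 71.0 ± 5.92 CPM (2.49 ± 0.24 SE, adjusted p = 0.000247), although its reads are hard to tell from those of its near copy Hspa1a. The co-chaperones Dnaja1 (0.99 ± 0.10, adjusted p = 0.000254) and Dnajb1 (1.2 ± 0.13, adjusted p = 0.000508) and the constitutive chaperone Hspa8 (1.26 ± 0.14, adjusted p = 0.000533) rose too. In the knockout 12 of 21 rose and none fell (median 0.65 against -0.01, 5.27% of all genes called higher), and all 12 were among the 14. Hspa8 (1.24 ± 0.14, adjusted p = 0.00128), the HSP90 partner Chordc1 (1.08 ± 0.13, adjusted p = 0.0025), Dnaja1 (0.77 ± 0.10, adjusted p = 0.00259) and Dnajb1 (0.86 ± 0.13, adjusted p = 0.00576) led. Counts of heat shock genes rising were 8 in wild type without WT ZT4 replicate 5 and 6 in the knockout without KO ZT4 replicate 4 or 6. None fell in any alternative. A fit of the 6 knockout libraries alone called 3. Of all genes, 463 were called higher in wild type and 102 without WT ZT4 replicate 5. In the knockout 851 were, against 80 and 83 without KO ZT4 replicate 4 and 6 and 19 in the fit of 6 libraries.

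In the genotype comparison averaged over the times, 6 of the 21 heat shock genes fell in the knockout and none rose (median -0.29 against 0.01 over all genes, 5.31% called lower), with Dnaja1 at -0.43 ± 0.07 (adjusted p = 0.00196), Hsph1, an HSP110 chaperone, at -0.49 ± 0.10 (adjusted p = 0.00901), the HSP90 activator Ahsa1 at -0.38 ± 0.08 (adjusted p = 0.0133) and Dnajb1 at -0.38 ± 0.09 (adjusted p = 0.0195). The count was 3 without KO ZT4 replicate 4 and 12 without KO ZT16 replicate 2. Of all genes 533 and 3557 were called lower in these fits, against 858 in the fit of 12 libraries. At ZT4 edgeR called none of the 21, where 1.63% of all genes were called higher and 1.66% lower. Of the 21, 6 had an unadjusted p under 0.05. DESeq2 called 2, and edgeR called 5 without KO ZT16 replicate 2 and 6 in a fit of the ZT4 libraries alone. Of all genes 600, 1223 and 1350 were called lower in these settings, in that order, against 268 in the fit of 12 libraries. At ZT16 5 fell (1.96% of all genes were called lower), led by Hspa1b (-1.30 ± 0.23, adjusted p = 0.00609). The count of 5 ran from 2 to 11 with a library left out, 11 without KO ZT16 replicate 2. It was 0 in a fit of the ZT16 libraries alone. Of all genes 316 were called lower in the fit of 12 libraries, 2699 without KO ZT16 replicate 2 and 102 with the ZT16 libraries alone.

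Splicing factors related to Tra2a mostly did not pass. Of 11 tested SR splicing factors 1 rose at night in each genotype and none fell (medians 0.06 and -0.08), where 2.87% and 5.27% of all genes were called higher. It was Tra2b, the paralog of Tra2a, which went from 45.3 ± 4.81 to 62.1 ± 5.24 CPM in wild type (0.46 ± 0.10, adjusted p = 0.0264) and from 41.4 ± 2.07 to 53.1 ± 5.65 CPM in the knockout (0.36 ± 0.10, adjusted p = 0.0487). Its call held in 14 of 19 alternatives in wild type and 6 of 19 in the knockout. Of 10 kinases that phosphorylate SR proteins or are related to those, 1 fell at night in each genotype, Dyrk1b (-0.68 and -0.66, adjusted p = 0.04 and 0.0358), where 3.63% and 5.20% of all genes were called lower, and its call held in 10 of 19 and 12 of 19 alternatives. Clk1 and Clk4, which phosphorylate SR proteins in a temperature-dependent way, were at 0.34 and 0.41 in wild type and 0.35 and 0.38 in the knockout without a call. Between genotypes, averaged over the times, edgeR called none of the 11 SR factors or the 10 kinases, where 11.4% of all genes were called. In each list 3 had an unadjusted p under 0.05 and DESeq2 called 1.

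Genes of hnRNP and related RNA-binding proteins were divided. In wild type 1 of 23 rose at night, Hnrnph1 (0.43 ± 0.09, adjusted p = 0.0213), and 2 fell, among them Hnrnpl (-0.39 ± 0.10, adjusted p = 0.046), where 2.87% of all genes were called higher and 3.63% lower. In the knockout 2 rose and 5 fell, where 5.27% and 5.20% of all genes were called. Hnrnpa0 (-0.73 ± 0.14, adjusted p = 0.012), Hnrnpd, which binds AU-rich elements (-0.74 ± 0.14, adjusted p = 0.012) and Hnrnpl (-0.55 ± 0.10, adjusted p = 0.0133) were among the lower ones. The 3 genes called in wild type were all called with the same sign in the knockout. Without KO ZT4 replicate 4 or 6, 1 gene of the list was called lower and none higher in the knockout. Of all genes 181 and 213 were called there, against 1691. In wild type the list had no call without WT ZT4 replicate 1 or 5 or WT ZT16 replicate 5, where 439, 220 and 261 of all genes were called. It had 4 higher and 6 lower without KO ZT16 replicate 2. There 2871 of all genes were called higher and 2602 lower, against 463 and 587. Averaged over the times 2 of the 23 rose in the knockout, Hnrnpd (0.33 ± 0.10, adjusted p = 0.045) and Hnrnpl (0.25 ± 0.07, adjusted p = 0.048), where 6.04% of all genes were called higher, and both lost the call without WT ZT4 replicate 1 (adjusted p = 0.118 and 0.127).

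Genes with a cold shock domain, named for bacterial cold shock proteins and unrelated in fold to CIRBP and RBM3, were mostly not called. Csdc2, a low-abundance member, fell at night from 3.21 ± 0.276 to 1.48 ± 0.122 CPM in wild type (-1.11 ± 0.19, adjusted p = 0.00824) and in the knockout (-0.78 ± 0.18, adjusted p = 0.025), 1 of 6 tested in each, with 3.63% and 5.20% of all genes called lower. Ybx1, a general mRNA packaging protein, was higher in the knockout over both times (0.35 ± 0.07, adjusted p = 0.0108), in all 17 alternatives too. Among the other 38 tested Rbm genes, which share with Rbm3 a name and an RNA recognition motif, 4 rose and none fell at night in wild type (median 0.05), led by Rbm12 (0.59 ± 0.13, adjusted p = 0.0206), and 2 rose and 1 fell in the knockout (median 0.04). Of all genes 2.87% were called higher and 3.63% lower in wild type, and 5.27% and 5.20% in the knockout. None of the list was called in wild type without WT ZT4 replicate 1 or 5 or WT ZT16 replicate 3 or 5. In these fits 439, 220, 551 and 261 of all genes were called, against 1050 with all libraries. Without KO ZT16 replicate 2, 9 of the list were higher and 3 lower. There 2871 of all genes were called higher and 2602 lower, against 463 and 587. Rbm38, which binds and stabilises p21 mRNA, rose in the knockout over both times from 4.01 and 3.26 CPM (WT ZT4 and ZT16) to 12.0 and 9.32 CPM (1.54 ± 0.10, adjusted p = 1.63e-06), with all 17 alternatives calling it.

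**Figure D4:**
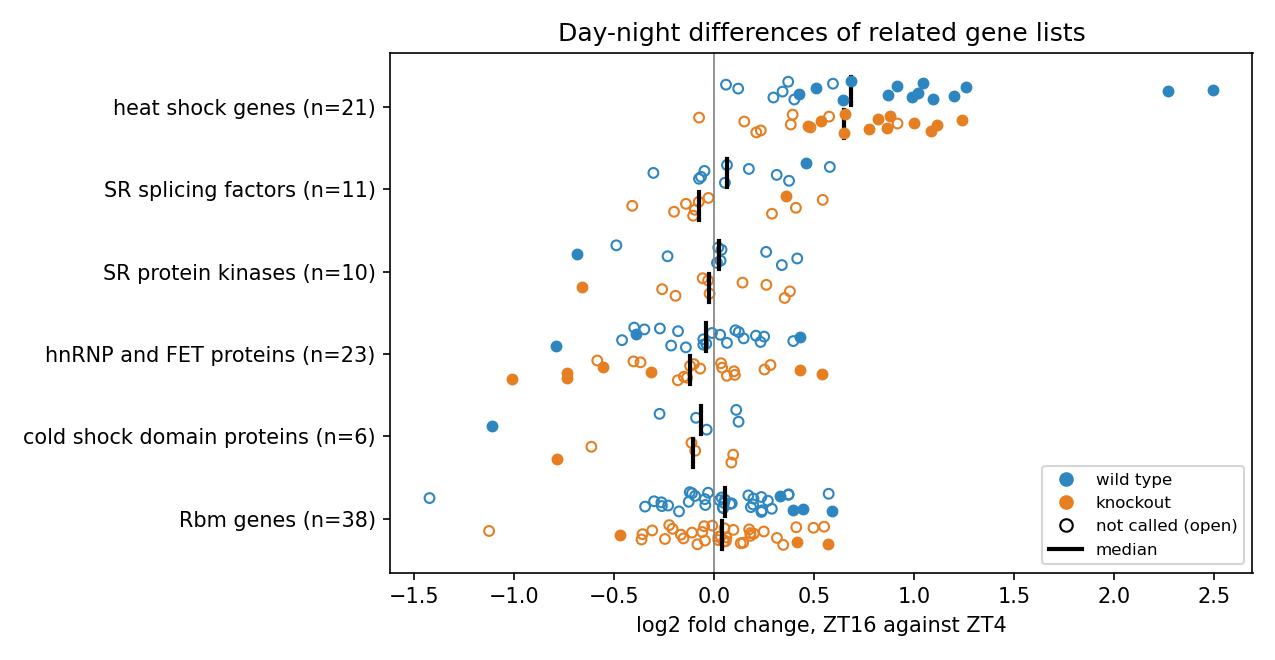
Log2 fold changes of ZT16 against ZT4 for every tested member of 6 gene lists, in wild type (blue, upper row of each list) and knockout (orange, lower row), filled where called at an adjusted p of 0.05, with the median as a bar. Heat shock genes lie to the right (medians 0.68 and 0.65), and the medians of the other lists lie between -0.12 and 0.06.

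Clock and Per2, the clock genes most closely tied to CIRBP and to heat, were set beside the 3. Clock, whose mRNA CIRBP binds, was at 66.6 ± 3.87 and 75.2 ± 7.44 CPM in WT ZT4 and ZT16 (0.17 ± 0.09, adjusted p = 0.193) and at 71.9 ± 2.56 and 98.8 ± 4.71 CPM in the knockout (0.46 ± 0.09, adjusted p = 0.0128). It was higher in the knockout at ZT16 (0.39 ± 0.09, adjusted p = 0.0229) and over both times (0.25 ± 0.06, adjusted p = 0.0202), not at ZT4 (0.11 ± 0.09, adjusted p = 0.501). These calls of Clock held in 15 of 19 alternatives between the times in the knockout, 14 of 18 at ZT16 and 13 of 17 over both times, with adjusted p up to 0.0689, 0.181 and 0.0581. Per2, a clock repressor that also follows heat and systemic cues, rose at night by 2.51 ± 0.19 in wild type (adjusted p = 3.26e-05) and 1.09 ± 0.17 in the knockout (adjusted p = 0.00742). Its knockout minus wild-type value was 1.195 ± 0.18 at ZT4 (adjusted p = 0.00298), -0.23 ± 0.17 at ZT16 (adjusted p = 0.563) and 0.48 ± 0.12 over both (adjusted p = 0.0266), the last held in 8 of 17 alternatives (adjusted p up to 0.0789). The difference of the day-night values between genotypes did not pass for Clock (0.29 ± 0.12, adjusted p = 0.9996) or Per2 (-1.42 ± 0.25, adjusted p = 0.245) in edgeR's quasi-likelihood test. Both had an unadjusted p under 0.05, and 1 of the 2 was called lower by DESeq2, with GC and length offsets, and without KO ZT16 replicate 2 or 4.

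Genes most like each of the 3 over the 12 libraries were found by Pearson correlation of log2 CPM among the 11065 tested genes whose mean reached 5 CPM. The libraries form groups by time and genotype and share their scaling, so any gene with a large day-night difference scores high, and the values are descriptions only. Cirbp was most like Lmbr1l (r = 0.982), Serinc5 (0.981), Tril (0.975), Zfp512 (0.972) and Dqx1 (0.969), and most unlike Tmem50b (-0.991), Tfg (-0.981), Uba6 (-0.974), Chordc1 (-0.973) and Ncoa4 (-0.972). Tra2a was most like the heat shock gene Chordc1 (0.985), Tsr1 (0.984), Irf3 (0.979) and the heat shock gene Hspa8 (0.974), and most unlike Calcoco1 (-0.982), Erbb3 (-0.981), Mocs1 (-0.979), Pde9a (-0.977) and Lmbr1l (-0.977). Lmbr1l and Chordc1 thus stood at opposite ends for Cirbp and Tra2a. Rbm3 was most like Nfyb (0.971), Acadsb (0.962), Rrp15 (0.961) and Nop58 (0.961), and most unlike Plscr3 (-0.976), Slc39a1 (-0.960), Fam171a1 (-0.957), Ctdsp1 (-0.957) and Zmym3 (-0.951), none of them shared with the other two. A gene ID without a symbol stood among the 5 most like Tra2a and Rbm3 each.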

How the data were processed

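Read counts per gene of 12 whole-kidney libraries were used as the authors deposited them. Per the submitters' processing notes they were made with cutadapt 1.2.1, TopHat2 2.0.9 and HTSeq 0.5.4p3 on GRCm38, from TruSeq stranded mRNA libraries of 500 ng RNA per the labels' protocols. How HTSeq handled strand and overlaps, and its annotation, is not given in the sources used here. Lines for unassigned reads (no feature 3.50% to 5.96%, ambiguous 0.411% to 0.534%, not unique 30.8% to 43.0%) were left out. GENCODE M21 named 37607 of 38924 IDs.

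Counts were filtered with filterByExpr over the 4 groups (16150 genes), scaled by TMM and tested in 1 fit of all 12 libraries with edgeR 4.0.16 quasi-likelihood (R 4.3.3), p-values adjusted by Benjamini-Hochberg over all tested genes and called under 0.05. Log2 CPM used a prior count of 2. The pipeline was tested on simulated data. Between replicates chi-square per degree of freedom was 4.71 to 191, so no pair agreed within sampling noise.

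The members and the 8 gene lists were chosen with earlier results of these data known. Named are the 3 members, Clock and Per2 in every comparison, per list up to 4 called genes of smallest adjusted p (or well-expressed uncalled ones, of which Clk1 and Clk4 were chosen for their role after their values were seen), and the 5 most and least correlated genes per member. Hspa1b is also given in the knockout and for the difference between genotypes, chosen after the values were seen. The Rbm list held 42 symbols, without antisense and pseudogene entries. The values of 1 listed gene are not reported here. Alternatives were RLE scaling, no filter, DESeq2 1.42.0, limma 3.58.1 voom, only the libraries compared, a replicate block, each library left out, and, added after seeing the data, GC and length offsets.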

Additional observations from a re-analysis of the deposited data

How the results depend on the processing

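All 114 day-night values of the 3 genes under alternatives kept their sign. The genes were picked on these contrasts and their day and night libraries did not overlap, so the sign could hardly change. The values also moved by less than 1 SD of the replicates, but leaving out 1 of 3 libraries can hardly move a group mean further. Neither result shows much. Leaving out each library in turn gave -1.16 to -0.85 for Cirbp, 0.47 to 0.53 for Rbm3 and 0.93 to 1.07 for Tra2a in wild type, and -1.25 to -1.06, 0.39 to 0.69 and 0.81 to 0.97 in the knockout. The genotype values averaged over the times ranged from 0.24 to 0.38 for Cirbp, -0.14 to 0.01 for Rbm3 and -0.25 to -0.17 for Tra2a, at ZT4 from 0.26 to 0.52, -0.15 to -0.05 and -0.20 to -0.07, and at ZT16 from 0.11 to 0.39, -0.19 to 0.11 and -0.35 to -0.19. Adjusted p over the alternatives of the averaged value ran from 0.0364 to 0.235, 0.148 to 0.934 and 0.00989 to 0.219. Rbm3 turned to 0.0134 (both times) and 0.11 (ZT16) without KO ZT16 replicate 6. The interaction value ran from -0.29 to 0.01 for Cirbp, -0.11 to 0.20 for Rbm3 and -0.20 to -0.04 for Tra2a, turning sign without WT ZT16 replicate 3 for Cirbp (0.0145) and Rbm3 (-0.0035), and without KO ZT16 replicate 2 for Rbm3 (-0.11). As the report gives, Cirbp at ZT4 passed with only the libraries compared (0.38), and Tra2a over both times with GC and length offsets (-0.23).

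Counts of all genes called depended on single libraries. They were 1834 over both times (1120 to 6935 with a library left out), 531 at ZT4 (228 to 2503), 651 at ZT16 (380 to 5099), 1050 in wild type and 1691 in the knockout between the times (220 to 5473 and 181 to 3629), and 3 for the interaction (3 to 8), the highest without KO ZT16 replicate 2 except in the knockout (without KO ZT16 replicate 6). In this order without the first, DESeq2 called 1061, 1008, 2149, 3705 (2326 higher and 1379 lower, against 851 and 840) and 18, and GC and length offsets 933, 990, 1694, 2538 and 8. Fits of only the libraries compared called 2877, 200, 3557 and 36. The replicate block called 229, 189 and 1 in wild type, knockout and interaction. Same-numbered libraries did not deviate together (correlations -0.27 to 0.05 over 6 pairs, other pairs -0.19 to 0.22). Shifts of whole libraries enter these few correlations, so they cannot exclude a pairing by number. Under the block the heat shock count was 11 and 7.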
